A study of Homo sapiens with 12 samples.

Results

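The 4 CYP3A enzymes (CYP3A4, CYP3A5, CYP3A7 and CYP3A43), the xenobiotic receptors PXR (gene NR1I2) and CAR (gene NR1I3), and the reductase POR were followed in HepG2, a human cell line that was established from a liver tumour and is labelled as wild type. They were found by gene symbol, and each was represented by the transcript row whose summed count over the 12 libraries was highest. This gave 7 genes of the 28256 gene symbols measured, and all 7 were among the 13166 genes that passed the filter on low counts. After 24 h in medium with charcoal-stripped serum, cells received dexamethasone with KLA (DexKLA), dexamethasone alone (Dex, 50 nM), KLA alone (labelled dose 100 ng/µl) or the vehicle (DMSO, 0.1%), and RNA was taken after a further 24 h. Each of the 4 groups held 3 libraries. The labels do not expand the name KLA, and the unit of its dose is given as labelled. The titles of the DexKLA libraries name no dose of either agent. Comparisons of dexamethasone with and without KLA take the doses as equal. Only the vehicle group is labelled with a DMSO percentage, and whether the other groups had DMSO is not stated. Nothing says that the libraries of a group came from separate cultures, so a p-value here speaks to the spread among these libraries, which could be technical.

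CYP3A enzymes are haem-containing monooxygenases of the endoplasmic reticulum of hepatocytes and enterocytes that oxidise steroids, bile acids and a large share of medicines. CYP3A4 is the main form of adult liver, CYP3A7 the main form of fetal liver, CYP3A5 varies widely between people, and CYP3A43 is a form of low abundance. PXR and CAR are nuclear receptors that, as heterodimers with RXR, bind response elements near CYP3A genes and raise their transcription when drugs or steroids activate them. Dexamethasone is a ligand of the glucocorticoid receptor, and at high concentrations it also activates PXR. POR passes electrons from NADPH to all microsomal cytochrome P450 enzymes.

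The 4 CYP3A genes lie within 1 cluster on chromosome 7. The stretch just upstream of each is shown because CYP3A5, CYP3A7 and CYP3A43 differed between treatments in the tests below. CYP3A4 passed no test, and its stretch is shown because the element bound by PXR and CAR in CYP3A4 lies in it. The sequences run from 250 bases before to 50 bases after the transcription start and were read from RefSeq on GRCh38.p14. Of the 7 genes, 6 had such an entry, and POR had none. Capitals mark the best match to an everted repeat, the arms TGAACT and AGGTCA with 6 bases between them, searched on both strands.

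CYP3A5, chr7:99679947-99680246, minus strand: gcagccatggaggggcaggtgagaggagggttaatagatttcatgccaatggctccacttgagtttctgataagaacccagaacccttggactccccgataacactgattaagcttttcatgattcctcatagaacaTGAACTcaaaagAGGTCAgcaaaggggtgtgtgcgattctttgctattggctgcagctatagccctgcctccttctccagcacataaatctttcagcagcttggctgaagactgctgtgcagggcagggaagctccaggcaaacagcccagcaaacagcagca
CYP3A7, chr7:99735147-99735446, minus strand: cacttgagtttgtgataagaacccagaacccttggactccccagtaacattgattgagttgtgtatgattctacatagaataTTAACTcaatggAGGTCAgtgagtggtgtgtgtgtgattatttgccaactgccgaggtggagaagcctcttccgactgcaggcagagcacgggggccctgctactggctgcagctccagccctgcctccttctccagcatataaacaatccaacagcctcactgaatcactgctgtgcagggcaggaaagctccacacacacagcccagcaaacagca
CYP3A4, chr7:99784135-99784434, minus strand: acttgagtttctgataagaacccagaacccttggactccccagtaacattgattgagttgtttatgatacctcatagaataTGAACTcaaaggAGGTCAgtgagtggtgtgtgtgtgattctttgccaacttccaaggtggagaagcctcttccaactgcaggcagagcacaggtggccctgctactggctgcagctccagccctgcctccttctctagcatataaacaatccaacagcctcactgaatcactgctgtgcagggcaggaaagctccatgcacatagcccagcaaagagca
CYP3A43, chr7:99827763-99828062, plus strand: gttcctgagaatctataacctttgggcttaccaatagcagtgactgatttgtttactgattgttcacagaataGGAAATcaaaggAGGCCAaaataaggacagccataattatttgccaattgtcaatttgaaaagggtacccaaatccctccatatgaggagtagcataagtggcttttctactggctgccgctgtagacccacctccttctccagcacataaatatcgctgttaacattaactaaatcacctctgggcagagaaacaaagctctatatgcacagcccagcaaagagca

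CYP3A4 and CYP3A5 held the repeat with 0 of its 12 arm letters differing, at positions -169 to -152 and -113 to -96 relative to the start. The searched arms are the letters of the CYP3A4 element itself. Its own count of 0 thus follows from the choice of arms, and the other counts are differences from the arms of CYP3A4. CYP3A7 differed in 1 letter (G2T, counted from 1 at the first letter of the capitalised repeat, with the searched letter first), at positions -168 to -151. CYP3A43 differed in 3 letters (T1G, C5A and T16C), at positions -177 to -160. Of 35116 promoter sequences of the same length, 3 held the exact repeat (0.00854%), those of CYP3A5, CYP3A4 and ITGB1BP2. At most 1 differing letter was found in 46 of them (0.131%), and at most 3 in 14.9%, so the match of CYP3A43 is one that many promoters have. In the best match of NR1I3, 5 letters differed, and in those of the pair of NR1I2 promoters 4 and 3. The glucocorticoid response element, arms AGAACA and TGTTCT with 3 bases between them, searched on both strands, occurred with at most 3 of 12 letters differing in 10.8% of all promoters. The best matches in the 4 CYP3A promoters differed in 4 or 5 letters. These are matches of letters in 1 short window and say nothing of binding. The promoters of CYP3A4 and CYP3A7 were identical in 282 of 301 alignment columns (93.7%), gap columns included. For CYP3A4 and CYP3A5 it was 207 of 359 (57.7%), and for CYP3A4 and CYP3A43 206 of 313 (65.8%). Each stretch has 300 bases, so many of the 359 columns are gaps. The 57.7% is thus not the identity of the paired bases, which was not computed.

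Levels are given as CPM, the count scaled to a common library size with TMM normalisation. Levels of different genes are compared only as CPM per kilobase of transcript. Library totals ranged from 4514606 to 11484497 counts in DexKLA, 3642685 to 17782057 in Dex, 15998657 to 20933501 in KLA and 3317740 to 5277463 in DMSO cells, so depth moved with the groups. All 7 hepatocyte markers (among them ALB and HNF4A) were above 1 CPM on average. Their summed level was 114057 to 154108 CPM in DexKLA, 125504 to 131647 CPM in Dex, 118840 to 124136 CPM in KLA and 85337 to 103268 CPM in DMSO cells. This sum was thus lowest in the vehicle libraries, and its part in the differences from DMSO below was not tested. It was mostly ALB and AFP (means of 82049 and 26621 CPM) and does not speak for each marker. HNF4A was highest in DMSO cells, at 239 CPM on average, against 203 in DexKLA, 212 in Dex and 184 in KLA cells. Of the leukocyte markers, CD3E was at 0 in all libraries and PTPRC at 0.0641 CPM or less, while LYZ was at 3699 CPM or more. FKBP5, a direct glucocorticoid receptor target, was 1.04 ± 0.16 (SE) higher on the log2 scale in DexKLA than in KLA cells (quasi-likelihood test of edgeR, Benjamini-Hochberg adjusted p = 0.000869). The change of FKBP5 in Dex against DMSO cells was 0.55 ± 0.17 (adjusted p = 0.0857).

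CYP3A5 and CYP3A7 rose with dexamethasone both in the absence and in the presence of KLA, and CYP3A43, at low counts, was called higher in DexKLA than in KLA cells. CYP3A4, both receptors and POR passed no test. Dex against DMSO cells gave 2 of 7 genes called higher and 0 lower, where 1.22% of all tested genes were called higher and 0.835% lower. With 1 library omitted, the 160 genes behind that 1.22% became 42 (without Dex replicate 2) to 517 (without KLA replicate 3). DexKLA against KLA cells gave 3 of 7 called higher and 0 lower, where the background was 0.441% higher and 0.213% lower. Called here means an adjusted p under 0.05. The median log2 change of the 7 genes was 0.55 in Dex against DMSO and 0.58 in DexKLA against KLA cells, beside -0.01 and 0.00 over all tested genes. CYP3A43 passed the low-count filter only through the groups where it was high, so these counts and medians describe the 7 genes and are not evidence about them as a set. Averaged over cells with and without KLA, 3 of 7 genes rose with dexamethasone, where 0.873% of all tested genes did. In bulk RNA, fewer cells with a transcript and less of it in each cell cannot be told apart.

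**Figure D1:**
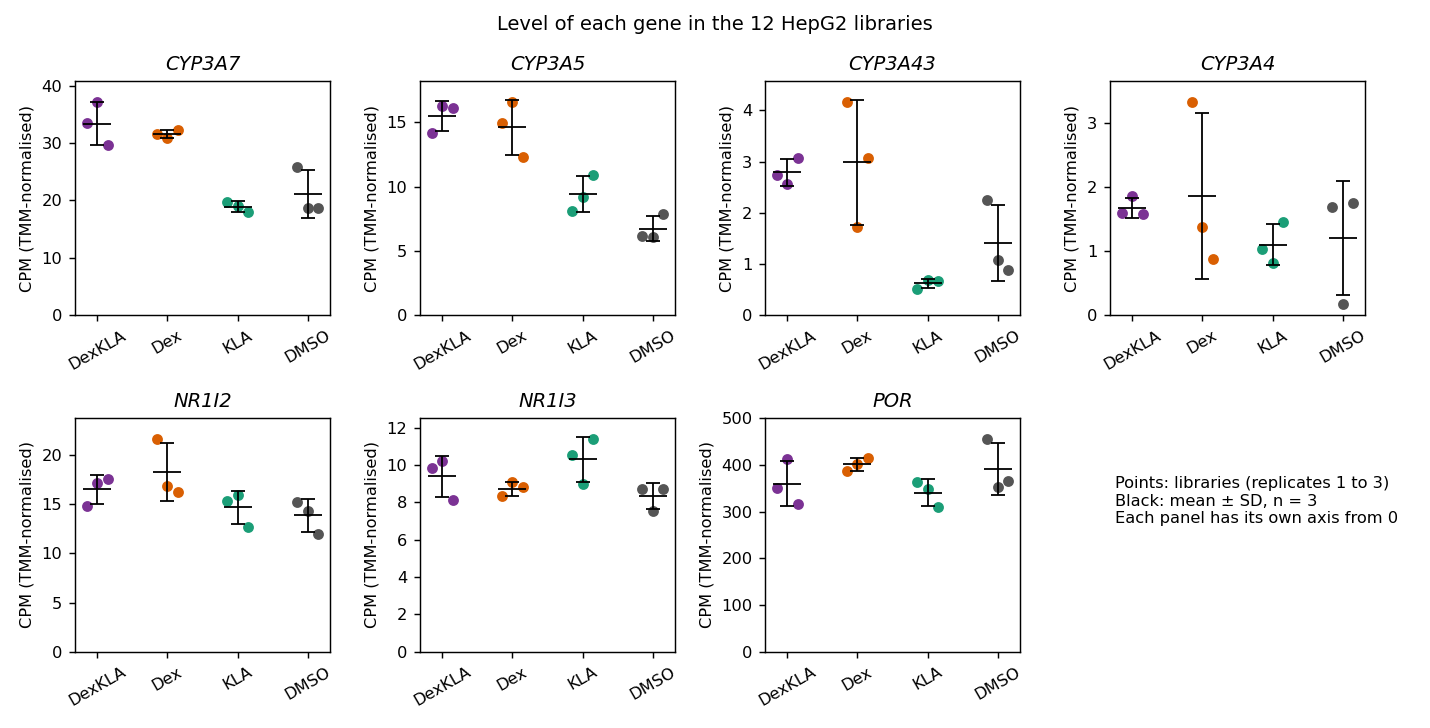
Level of each gene in CPM (vertical axis, TMM-normalised, each panel from 0) in DexKLA, Dex, KLA and DMSO cells (horizontal axis); points are libraries and black bars the mean ± SD of 3. For CYP3A7 and CYP3A5 all 6 libraries with dexamethasone lie above all 6 without it, while the points of CYP3A4, NR1I2, NR1I3 and POR overlap.

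CYP3A7 was at 33.5, 37.1 and 29.7 CPM in DexKLA cells, 31.6, 30.8 and 32.3 CPM in Dex cells, 19.8, 19.0 and 17.9 CPM in KLA cells and 25.9, 18.7 and 18.8 CPM in DMSO cells. The 6 libraries with dexamethasone (29.7 to 37.1 CPM) did not overlap the 6 without it (17.9 to 25.9 CPM), an order that 0.6% of tested genes showed. The change was 0.81 ± 0.13 in DexKLA against KLA cells (1.75-fold, adjusted p = 0.00153) and 0.60 ± 0.15 in Dex against DMSO cells (1.51-fold, adjusted p = 0.034). KLA alone left a difference from DMSO of -0.14 ± 0.14 (adjusted p = 0.533, 95% interval -0.43 to 0.15). The call in Dex against DMSO rested on single libraries: the adjusted p was 0.142 without DMSO replicate 2, 0.136 without DMSO replicate 3, and 0.0534, 0.142 and 0.124 without Dex replicates 1, 2 and 3. The call in DexKLA against KLA cells held in 23 of 23 alternative analyses.

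The row used for CYP3A7 was NM_000765, 2064 bases, at chromosome 7, 99705036 to 99735196, minus strand (hg38). The gene shares exons with the readthrough transcript CYP3A7-CYP3A51P (1507 of the 3810 exon bases annotated over all CYP3A7 transcripts, 39.6%). The shared part of the 2064-base row itself was not computed and may be larger. The deposited counts do not tell the pair's shared reads apart. The readthrough gene was at 23.2 to 30.2 CPM in DexKLA, 23.6 to 26.8 CPM in Dex, 12.95 to 15.4 CPM in KLA and 14.2 to 20.8 CPM in DMSO cells. Its change was 0.88 ± 0.14 in DexKLA against KLA cells (adjusted p = 0.0021) and 0.64 ± 0.16 in Dex against DMSO cells (adjusted p = 0.0446).

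CYP3A5 was at 14.2, 16.2 and 16.1 CPM in DexKLA cells, 14.97, 16.6 and 12.3 CPM in Dex cells, 8.14, 9.23 and 10.9 CPM in KLA cells and 6.19, 6.10 and 7.86 CPM in DMSO cells. All libraries with dexamethasone were above all without it, an order that 0.6% of tested genes showed. All of the 3 KLA libraries were also above the 3 DMSO libraries. How many of all genes show such an order of 3 against 3 libraries was not counted. The change was 1.15 ± 0.20 in Dex against DMSO cells (2.22-fold, adjusted p = 0.00324), 19th by p among genes with a higher level. It was 0.71 ± 0.16 in DexKLA against KLA cells (1.64-fold, adjusted p = 0.0308) and 1.20 ± 0.19 in DexKLA against DMSO cells (adjusted p = 0.00169). The difference of KLA alone from DMSO, 0.49 ± 0.19, missed the threshold (adjusted p = 0.0851, 95% interval 0.09 to 0.89). The dexamethasone effect with KLA minus that without it was -0.44 ± 0.25 (adjusted p = 0.308, interval -0.97 to 0.08).

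The CYP3A5 row used was NR_033807, 3311 bases, at chromosome 7, 99648194 to 99679996, minus strand. RefSeq marks this entry as non-coding. Over the 5 transcript rows of CYP3A5 the ratio of mean CPM ran between 2.00 and 2.20 for Dex over DMSO and between 1.60 and 1.93 for DexKLA over KLA, so the choice of row did not set the direction. Its call in DexKLA against KLA cells was lost without KLA replicate 1 (adjusted p = 0.155), KLA replicate 2 (0.107), DexKLA replicate 2 (0.124) or DexKLA replicate 3 (0.186), and its call in Dex against DMSO without Dex replicate 2 (0.0517).

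CYP3A43 was at 2.74, 2.55 and 3.07 CPM in DexKLA cells, 4.16, 1.72 and 3.08 CPM in Dex cells, 0.513, 0.676 and 0.670 CPM in KLA cells and 2.25, 1.08 and 0.873 CPM in DMSO cells. The DexKLA and KLA libraries were far apart, whereas 1 DMSO library lay above 1 Dex library. The change was 2.16 ± 0.35 in DexKLA against KLA cells (4.47-fold, 95% interval 1.44 to 2.88, adjusted p = 0.00166), the largest of the 7 genes in that comparison. In Dex against DMSO cells it was 0.93 ± 0.43 (adjusted p = 0.227, interval 0.03 to 1.82), and in KLA against DMSO cells -1.07 ± 0.48 (adjusted p = 0.13). The difference between both dexamethasone effects was 1.23 ± 0.58 (adjusted p = 0.211), so a stronger response with KLA than without it was not called. These are small counts, from 3.5 to 7.5 in DMSO and from 7.5 to 14.5 in KLA libraries. CYP3A43 also passed the filter on low counts through the groups where it was high: the needed 1.37 CPM was reached in 3 of 3 DexKLA, 3 of 3 Dex, 0 of 3 KLA and 1 of 3 DMSO libraries. With all libraries thinned to 3317740 counts, the change in DexKLA against KLA cells was 1.85 (adjusted p = 0.193), whereas 21 of 22 alternatives kept the call.

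The CYP3A43 row was NR_103869, 1814 bases, at chromosome 7, 99828013 to 99866093, plus strand, also a non-coding RefSeq entry. Its 6 transcript rows gave DexKLA to KLA ratios between 4.34 and 4.64 and Dex to DMSO ratios between 1.86 and 2.25.

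CYP3A4, the main drug-metabolising form of adult liver, was at 1.60, 1.86 and 1.58 CPM in DexKLA cells, 3.33, 1.38 and 0.880 CPM in Dex cells, 1.03, 0.821 and 1.45 CPM in KLA cells and 1.69, 0.179 and 1.75 CPM in DMSO cells. The values of Dex and DMSO cells overlapped. The 3 DexKLA libraries were above the 3 KLA libraries, an order whose share among all genes was not counted. The differences were 0.55 ± 0.56 in Dex against DMSO cells (adjusted p = 0.621, 95% interval -0.61 to 1.71) and 0.58 ± 0.42 in DexKLA against KLA cells (adjusted p = 0.629, interval -0.28 to 1.44). Both intervals take in the changes of CYP3A5 and CYP3A7, so at this depth neither a rise of their size nor the lack of one can be shown. The row was NM_001202855, 2763 bases, at chromosome 7, 99756967 to 99784184, minus strand. Of its 50-base windows, 12.1% also occur in another CYP3A transcript, against 9.11% for CYP3A7, 2.42% for CYP3A5 and 0.542% for CYP3A43. With 100-base windows no share was above 0.779%. Neither the read length nor the counting of reads shared by these paralogs is stated, so the split of reads between the CYP3A genes is uncertain.

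**Figure D2:**
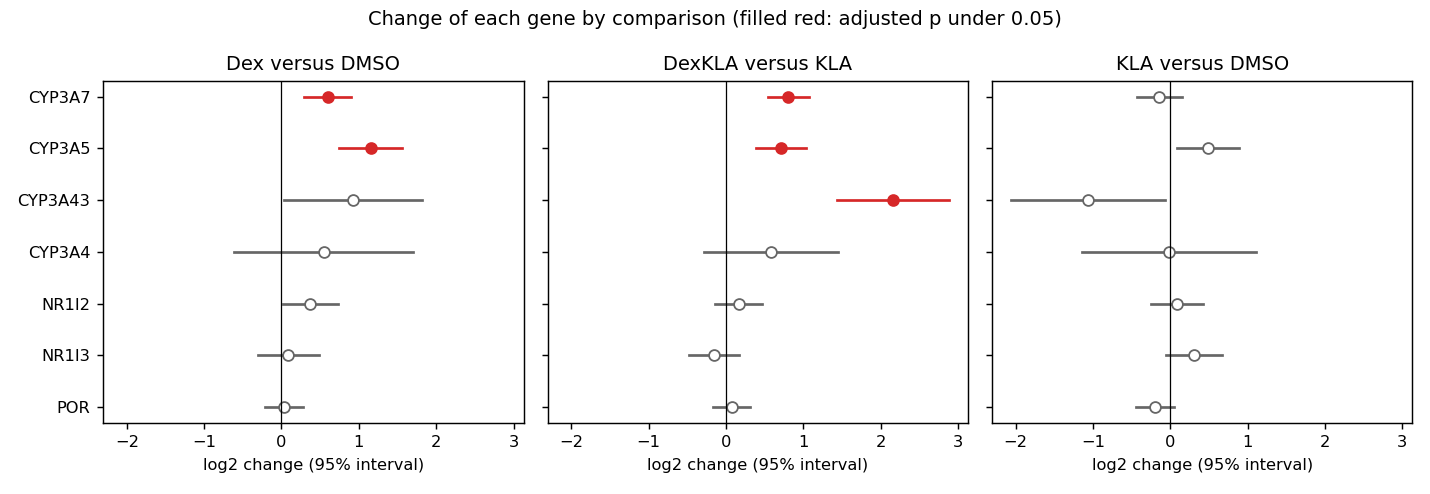
Log2 change with its 95% interval (horizontal axis) of each gene (rows) in Dex against DMSO, DexKLA against KLA and KLA against DMSO cells; filled red points have an adjusted p under 0.05. CYP3A7 and CYP3A5 are filled in both comparisons of dexamethasone, CYP3A43 (2.16) in that with KLA, and no gene in KLA against DMSO.

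Summed per kilobase, the 4 CYP3A genes reached 23.0 ± 1.78 CPM per kilobase in DexKLA, 22.04 ± 1.11 in Dex, 12.8 ± 0.109 in KLA and 13.5 ± 2.49 in DMSO cells (SD, n = 3 each). Every sum with dexamethasone (21.4 and above) exceeded every sum without it (16.3 and below). CYP3A7 made up most of this total, 70.2% ± 2.94 in DexKLA, 69.6% ± 3.79 in Dex, 71.9% ± 4.12 in KLA and 75.9% ± 3.20 in DMSO cells. CYP3A5 held 20.4% ± 1.96 in DexKLA, 20.1% ± 3.06 in Dex, 22.3% ± 3.17 in KLA and 15.4% ± 3.71 in DMSO cells. CYP3A43 held 6.74% ± 1.12 in DexKLA and 7.40% ± 2.74 in Dex cells, against 2.68% ± 0.394 in KLA and 5.53% ± 1.93 in DMSO cells. CYP3A4 averaged 2.64% to 3.11% in the 4 groups. The fetal form thus made up most CYP3A transcript in all 4 groups, and the adult form the least on average in each group except KLA, where the mean share of CYP3A43 was lower. The shares hold for the rows used. With its row of 1705 bases (1250.5 counts in all, against 1392.5 for the 3311 bases used), CYP3A5 would hold a larger share.

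**Figure D3:**
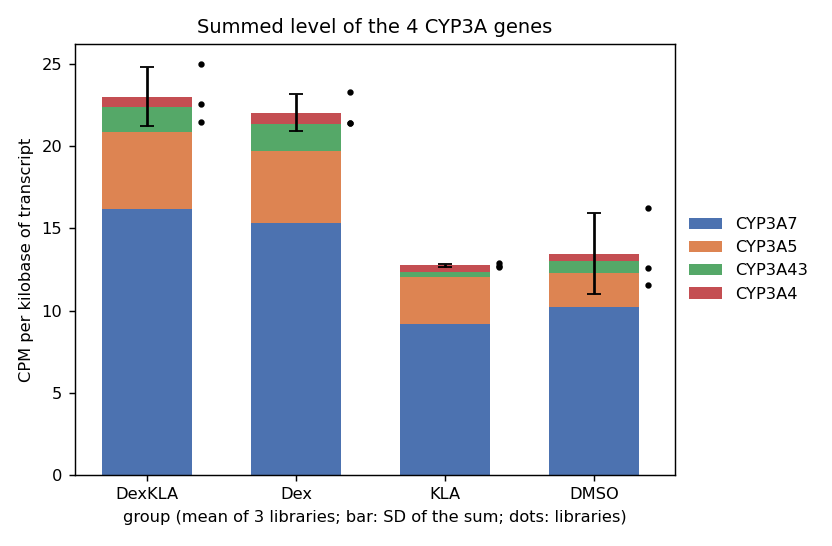
Summed level of the 4 CYP3A genes in CPM per kilobase of transcript (vertical axis, from 0) in DexKLA, Dex, KLA and DMSO cells; bars are means of 3 libraries split by gene, error bars the SD of the sum and dots the libraries. DexKLA (23.0) and Dex (22.04) cells stand above KLA (12.8) and DMSO (13.5) cells, and CYP3A7 fills most of every bar.

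NR1I2, which encodes PXR, was at 14.8, 17.2 and 17.5 CPM in DexKLA cells, 21.6, 16.8 and 16.3 CPM in Dex cells, 15.3, 15.9 and 12.7 CPM in KLA cells and 15.2, 14.4 and 12.01 CPM in DMSO cells. All 3 Dex libraries were above the 3 DMSO libraries, an order whose share among all genes was not counted, while DexKLA and KLA libraries overlapped. The difference was 0.37 ± 0.17 in Dex against DMSO cells (adjusted p = 0.215, 95% interval 0.02 to 0.72) and 0.17 ± 0.15 in DexKLA against KLA cells (adjusted p = 0.699, interval -0.13 to 0.47). The upper bounds leave room for a rise of the size seen for CYP3A7 in the first comparison but not in the second. The row was NM_003889, 4406 bases, at chromosome 3, 119780484 to 119818485, plus strand.

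NR1I3, which encodes CAR, was at 9.82, 10.2 and 8.14 CPM in DexKLA cells, 8.32, 9.06 and 8.80 CPM in Dex cells, 10.5, 8.99 and 11.4 CPM in KLA cells and 8.73, 7.54 and 8.73 CPM in DMSO cells. The differences were 0.09 ± 0.19 in Dex against DMSO (adjusted p = 0.828), -0.15 ± 0.16 in DexKLA against KLA (adjusted p = 0.753) and 0.31 ± 0.17 in KLA against DMSO cells (adjusted p = 0.226). All 3 KLA libraries were above the 3 DMSO libraries, an order whose share among all genes was not counted. The row was NM_001077482, 1397 bases, at chromosome 1, 161229666 to 161238210, minus strand. TOMM40L, on the other strand, overlaps 661 of the 3305 exon bases annotated over all NR1I3 transcripts. The overlapped part of the row itself was not computed. Whether counting used the strand is not given in the sources used here. TOMM40L itself differed by 0.26 in KLA against DMSO cells (adjusted p = 0.142).

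POR, the electron donor, was at 351, 412 and 316 CPM in DexKLA cells, 387, 403 and 414 CPM in Dex cells, 364, 349 and 310 CPM in KLA cells and 456, 352 and 366 CPM in DMSO cells. The groups overlapped, other than Dex, whose libraries were all above those of KLA cells, an order whose share among all genes was not counted. The differences were 0.04 ± 0.12 in Dex against DMSO (95% interval -0.21 to 0.28, adjusted p = 0.888) and 0.08 ± 0.12 in DexKLA against KLA cells (interval -0.17 to 0.32, adjusted p = 0.847). Both intervals lie below the changes of CYP3A5 and CYP3A7. KLA against DMSO gave -0.20 ± 0.12 (adjusted p = 0.256). The row was NM_001367562, 2534 bases, at chromosome 7, 75915155 to 75986855, plus strand.

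Across the 12 libraries the mean level per kilobase was highest for POR (147 CPM per kilobase), followed by CYP3A7 (12.7), NR1I3 (6.58), NR1I2 (3.59), CYP3A5 (3.49), CYP3A43 (1.07) and CYP3A4 (0.529). Each of these was above the next in 12 of 12 libraries, except for 2 pairs of neighbours. NR1I2 was above CYP3A5 in 1 of 6 libraries with dexamethasone and in 5 of 6 without it. CYP3A43 was above CYP3A4 in 6 of 6 libraries with dexamethasone and in 3 of 6 without it. These pairs were thus not separated over all libraries, and the order of NR1I2 and CYP3A5 was opposite in most libraries with and without dexamethasone. These levels hold for the rows used. A CYP3A5 row of 1705 bases held 1250.5 counts over the 12 libraries, against 1392.5 for the 3311 bases used. An NR1I2 row of 2732 bases held 1665, against 1846 for the 4406 bases used. Both genes would stand higher per kilobase with these shorter rows, so their place in the order depends on the row.

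No comparison of KLA called any of the 7 genes. KLA against DMSO called 0 of 7 with edgeR, DESeq2 and voom alike, and edgeR called 13.7% of all tested genes. That share rested on single libraries, with 5 genes called without DMSO replicate 1 and 591 without KLA replicate 3, in place of 1806. Among the 7, 2 genes, CYP3A5 and CYP3A43, had an unadjusted p under 0.05. DexKLA against Dex cells called 0 of 7 with edgeR, also 0 at an unadjusted p under 0.05, and 0 of all 13166 genes, of which 935 had an unadjusted p under 0.05. DESeq2 and voom also called 0 there. The differences of the 7 genes there ran between -0.16 (POR) and 0.17 (CYP3A43). DexKLA against DMSO cells called the same 2 genes as Dex against DMSO, where 2.84% of all tested genes were called higher and 1.38% lower: CYP3A5 at 1.20 ± 0.19 and CYP3A7 at 0.67 ± 0.14 (adjusted p = 0.014). Comparisons with DMSO share those 3 libraries. The call of CYP3A7 in DexKLA against DMSO was lost without DMSO replicate 2 (adjusted p = 0.0715) or 3 (0.0609) and without DexKLA replicate 1 (0.0581) or 2 (0.0722). No gene of the 7 was called for a dexamethasone effect that differed with KLA, and 0.038% of all genes were.

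With all libraries used, the mean effect of dexamethasone was 0.93 ± 0.13 for CYP3A5 (1.91-fold, adjusted p = 9.97e-05), 0.70 ± 0.10 for CYP3A7 (1.63-fold, adjusted p = 0.000128) and 1.54 ± 0.27 for CYP3A43 (2.92-fold, adjusted p = 0.002). It was 0.56 ± 0.35 for CYP3A4 (adjusted p = 0.695), 0.27 ± 0.11 for NR1I2 (adjusted p = 0.426), -0.03 ± 0.12 for NR1I3 (adjusted p = 0.975) and 0.06 ± 0.08 for POR (adjusted p = 0.908). CYP3A5 and CYP3A7 were 27th and 31st by p of 13166 genes, and CYP3A43 was 74th. The calls of CYP3A5 and CYP3A7 held in 22 of 22 alternative analyses. That of CYP3A43 held in the 21 in which it was tested, but its level was under the filter's 1.37 CPM in 5 of 6 libraries without dexamethasone, and it entered the test through those with dexamethasone. With no filter on low counts its mean effect was 1.54 (adjusted p = 5.84e-06 by edgeR). That fit called more genes in every comparison (312 against 199 for the mean effect of dexamethasone, 663 against 0 for that of KLA). Its smaller p is thus no added support, and the counts of CYP3A43 stay as small.

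**Figure D4:**
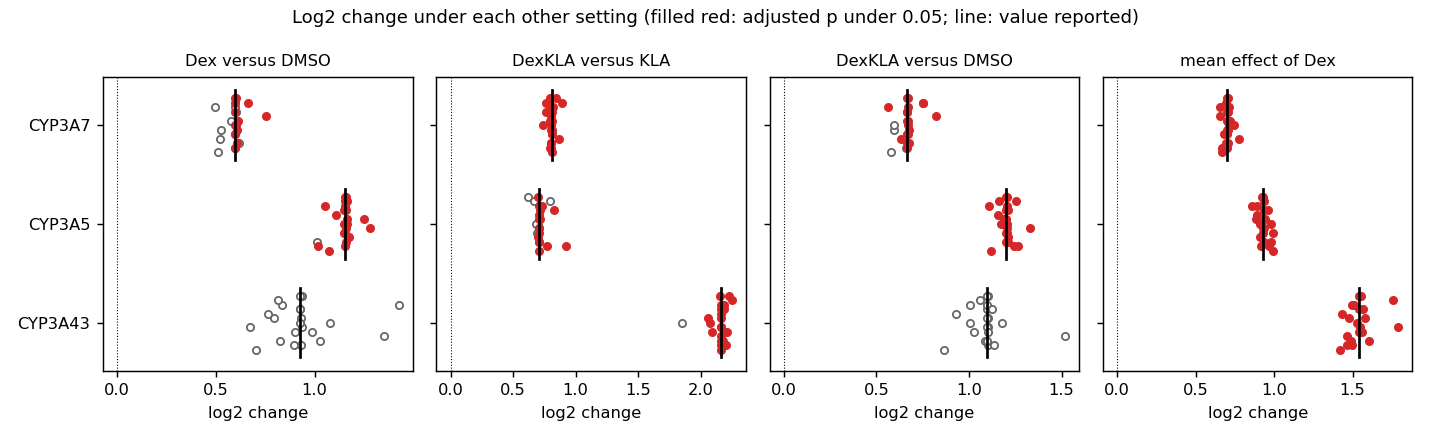
Log2 change (horizontal axis) of CYP3A7, CYP3A5 and CYP3A43 (rows) in 4 comparisons under each alternative setting or omitted library; filled red points have an adjusted p under 0.05, and the black line is the value reported. All points lie above 0, the mean effect of dexamethasone is filled throughout, and CYP3A7 in Dex against DMSO (0.50 to 0.75) is filled in 15 of 23.

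No other tested gene that PXR and CAR are known to induce was called. Of 14 such genes 8 could be tested, and 0 were called by edgeR in any of the 8 comparisons. With 13.7% of all genes called in KLA against DMSO cells, and no more than 2.84% in any 1 direction in the other comparisons, a count of 0 of 8 is near the background. Their median mean effect of dexamethasone was -0.01, beside 0.00 over all genes. The range was from -0.46 ± 0.12 for the glutathione transferase GSTA1 (adjusted p = 0.0729) to 0.59 ± 0.26 for the bilirubin glucuronosyltransferase UGT1A1 (adjusted p = 0.503). The efflux pump ABCB1 was at 0.13 ± 0.08 (adjusted p = 0.683) and the sulfotransferase SULT2A1 at -0.08 ± 0.11 (adjusted p = 0.906). The other 6 were too low to test. CYP2C19 had no count in any library, which allows a level of up to 0.0253 CPM over the 12 libraries, from counting error alone. CYP2B6, the classic CAR target, had 7 counts in all, CYP2C8 5, CYP2A6 1 and the uptake carrier SLCO1B1 15.

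The receptors' partners and the other regulators of CYP3A transcription showed calls in both directions. Of 21 tested genes in this list of 23, 1 rose and 3 fell in Dex against DMSO cells, beside 1.22% and 0.835% of all genes. In KLA against DMSO 1 rose and 8 fell, beside 7.78% and 5.94% of all genes. Without DMSO replicate 1 that comparison called 2 genes higher and 3 lower among all tested, so most of these 8 calls were lost there. In DexKLA against KLA cells none was called, near the background of 0.441% higher and 0.213% lower. Averaged over cells with and without KLA, dexamethasone called 1 gene higher and 2 lower, beside 0.873% and 0.638% of all genes. The C/EBP transcription factor gene CEBPA fell to 178 ± 22.9 CPM in DexKLA and 187 ± 12.9 in Dex cells, against 247 ± 29.6 in KLA and 337 ± 40.9 in DMSO cells (SD, n = 3 each). Its mean effect was -0.66 ± 0.09 (adjusted p = 6.13e-05). CEBPD, of the same family and a known glucocorticoid-responsive gene, rose to 41.9 ± 9.98 CPM in DexKLA and 44.1 ± 4.59 in Dex cells, against 31.6 ± 4.15 in KLA and 26.0 ± 1.92 in DMSO cells (mean effect 0.57 ± 0.11, adjusted p = 0.00442). NR1H4, the bile acid receptor FXR, was at 28.8 ± 7.05 CPM in DexKLA and 28.5 ± 0.208 in Dex cells, against 37.1 ± 3.56 in KLA and 45.4 ± 3.24 in DMSO cells (mean effect -0.52 ± 0.10, adjusted p = 0.0074). The coactivator gene NCOA1 fell with KLA alone, to 7.33 ± 1.56 CPM against 13.9 ± 1.60 in DMSO cells (-0.91 ± 0.18, adjusted p = 0.00923). It also fell in Dex cells, to 7.60 ± 0.362 CPM (-0.85 ± 0.20, adjusted p = 0.0271). Whether its KLA call was among the 3 lower ones left without DMSO replicate 1 is not given here.

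**Figure D5:**
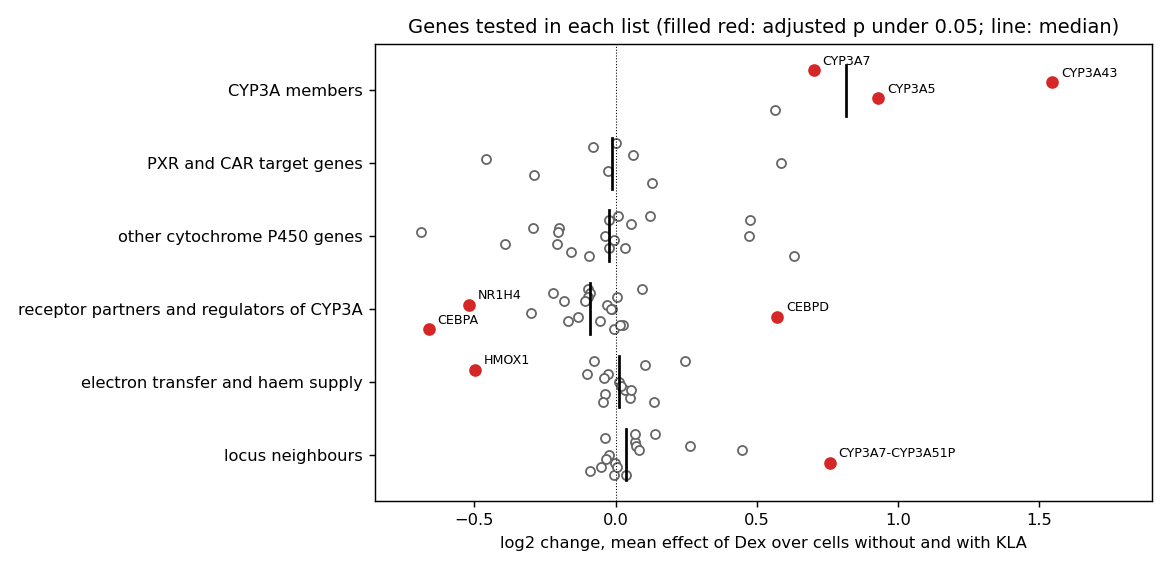
Mean effect of dexamethasone on the log2 scale (horizontal axis) for the genes tested in 6 groups (rows); filled red points, named, have an adjusted p under 0.05 and black lines are medians. The 4 CYP3A genes lie to the right of 0 while the PXR and CAR target genes centre on -0.01 with none called.

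POR works with cytochrome b5 and depends, like every P450, on haem. Of 15 genes of electron transfer and haem supply, all tested, 0 were called in Dex against DMSO and in DexKLA against KLA cells, near the background of 1.22% higher and 0.835% lower in Dex against DMSO and 0.441% and 0.213% in DexKLA against KLA. HMOX1, which breaks haem down, was at 17.6 ± 3.27 CPM in DexKLA and 20.3 ± 2.23 in Dex cells, against 23.4 ± 2.68 in KLA and 30.3 ± 7.52 in DMSO cells (mean effect of dexamethasone -0.50 ± 0.12, adjusted p = 0.028). With KLA alone, the haem synthesis gene UROD rose against DMSO (0.53 ± 0.11, adjusted p = 0.0097). Without DMSO replicate 1, KLA against DMSO called 2 genes higher among all tested, and whether UROD was among them is not given here.

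Of 38 other P450 genes 19 could be tested. In Dex against DMSO cells 0 rose and 2 fell, CYP1A1 and CYP24A1, beside 1.22% of all genes called higher and 0.835% lower. In KLA against DMSO cells 3 fell, beside 5.94% of all genes. Without DMSO replicate 1 that comparison called 3 genes lower among all tested, and whether these P450 genes were among them is not given here. In DexKLA against KLA cells and in the mean effect of dexamethasone 0 were called. Both are near the background, 0.441% higher and 0.213% lower in the first and 0.873% and 0.638% in the second. CYP1A1, the aryl hydrocarbon receptor target, was at 32.0 ± 5.57 CPM in DexKLA, 29.7 ± 2.99 CPM in Dex and 33.1 ± 2.34 CPM in KLA cells, against 49.6 ± 8.46 CPM in DMSO cells. It fell against DMSO in all 3 treated groups, by edgeR (Dex -0.75 ± 0.15, adjusted p = 0.00959; KLA -0.57 ± 0.14, adjusted p = 0.014; DexKLA -0.60 ± 0.14, adjusted p = 0.0255). CYP24A1, the vitamin D 24-hydroxylase, fell to 11.03 ± 0.235 CPM in Dex and 9.15 ± 2.55 CPM in KLA cells, against 39.5 ± 18.4 CPM in DMSO cells (-1.80 ± 0.27, adjusted p = 0.000727, and -2.08 ± 0.25, adjusted p = 0.000357). CYP8B1, of bile acid synthesis, fell in KLA against DMSO cells (-1.06 ± 0.29, adjusted p = 0.0216). The median mean effect of dexamethasone over the 19 genes was -0.02.

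Of 20 genes that neighbour the 7, 17 were tested, and the readthrough gene CYP3A7-CYP3A51P was the 1 called for the mean effect of dexamethasone, for which 0.873% of all genes were called higher and 0.638% lower. ZSCAN25, next to CYP3A5, differed by -0.17 ± 0.14 in Dex against DMSO cells (adjusted p = 0.519) and by 0.18 ± 0.13 in DexKLA against KLA cells (adjusted p = 0.619). AZGP1, beyond CYP3A43, was at 238 ± 14.3 CPM in DexKLA, 231 ± 7.56 in Dex and 221 ± 40.0 in KLA cells, against 173 ± 12.5 CPM in DMSO cells. Its change in DexKLA against DMSO cells was 0.46 ± 0.12 (adjusted p = 0.0346 by edgeR). That comparison called 2 of the 17 genes higher and 0 lower, beside 2.84% and 1.38% of all genes.

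Among 12382 genes with a mean level high enough to compare, those most like each CYP3A gene over the 12 libraries were ranked by Pearson's r of log2 CPM, a description over libraries that share the same 4 treatments. For CYP3A5 they were the glucuronosyltransferase UGT2B11 (r = 0.97), the Wnt antagonist DKK4 (0.94) and the bile acid conjugating enzyme BAAT (0.94). UGT2B11 was at 50.5 to 71.5 CPM in DexKLA, 42.7 to 51.8 in Dex, 28.8 to 34.3 in KLA and 16.9 to 24.7 CPM in DMSO cells, and it has close paralogs that may share reads. For CYP3A7, after its readthrough transcript, they were FSTL3 (0.97), a secreted inhibitor of activins, and PGC (0.95), a pepsinogen. PGC was at 108 to 140 CPM in DexKLA, 126 to 137 in Dex, 35.3 to 55.6 in KLA and 45.9 to 69.8 CPM in DMSO cells. For CYP3A43 they were the mitochondrial carrier SLC25A30 (0.93), the tyrosine catabolic enzyme HGD (0.92) and the caveolar protein gene CAVIN2 (0.91). For CYP3A4, whose counts were lowest, they were HLA-F-AS1 (0.91), TTC19 (0.88) and GADD45A (0.85), of which none was called in Dex against DMSO or DexKLA against KLA cells. Among the 7 genes themselves, CYP3A43 and CYP3A7 were the most alike (r = 0.89), CYP3A5 and CYP3A7 followed (0.75), and NR1I3 had r between -0.37 and 0.29 with the others.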

How the data were processed

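RNA of 12 HepG2 libraries was sequenced, from libraries made with an NEBNext Ultra II kit per the labels. Trimmomatic, BWA 0.7.17, HOMER 4.10 and the hg38 genome are named in the submitters' processing notes. How they were used, the read length and the strand are not given in the sources used here. The deposited table held values in steps of 0.5 for 70507 transcripts, taken here to be the authors' expected counts. They were rounded to whole numbers, 406 transcripts without a gene symbol (1.71% to 2.55% of a library's counts) were left out, and the transcript with the highest total was kept for each symbol.

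Genes were filtered with filterByExpr (minimum count 10), normalised by TMM and fitted with edgeR 4.0.16 (R 4.3.3) over all 12 libraries, with 1 mean per group. The quasi-likelihood test gave each adjusted p (Benjamini-Hochberg over 13166 genes). SE is the log2 change divided by the square root of F. Libraries of a group differed by more than sampling noise (chi-square per degree of freedom 1.92 or more).

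Alternatives were DESeq2 1.42.0, its size factors, limma 3.58.1 voom, library size alone, other filters, the longest transcript of each gene, 2 groups alone, thinning, removal of each library's trend with transcript length, replicate number as a block, and omission of each library. The 7 genes, the gene lists and the alternatives were chosen with earlier results of these data known. Named genes are all 7, up to 4 called genes of each list with the smallest p, FKBP5, and for each CYP3A gene the 3 of most like pattern. GSTA1, UGT1A1, ABCB1, SULT2A1, ZSCAN25, TOMM40L and the genes too low to test were named in addition, after their values were seen. RefSeq promoters (GRCh38.p14) were searched with Python 3.11.15. Some genes of the lists are not reported here. Floors of 3 counts cover counting error only.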

Additional observations from a re-analysis of the deposited data

Results flagged for a closer look

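CYP24A1, the vitamin D 24-hydroxylase among the other P450 genes, differed between treatments in its response to dexamethasone. The effect of dexamethasone with KLA minus that without KLA was 2.23 ± 0.37 on the log2 scale (adjusted p = 0.0449 by edgeR's interaction test), 1 of 5 genes called among 13166. Its level was 10.2 to 13.2 CPM in DexKLA, 10.8 to 11.2 CPM in Dex, 6.31 to 11.3 CPM in KLA and 20.5 to 57.2 CPM in DMSO cells, so the vehicle libraries spread most. The number of genes called for such an interaction depended on the tool and on single libraries. It was 0 with DESeq2 size factors, with limma voom and with the replicate block, and 705 with the DESeq2 test, where edgeR as reported gave 5. With 1 library omitted it ran from 0 (without DMSO replicate 1, for example) to 681 (without DexKLA replicate 1).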

How the results depend on the processing

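Of 8 counts of called genes among the 7, those in Dex against DMSO, DexKLA against KLA and the mean effect of dexamethasone changed with a setting. Dex against DMSO gave 2, and 1 (CYP3A5) with library size alone, with the replicate block and with the length trend removed, where the adjusted p of CYP3A7 was 0.0652, 0.0528 and 0.0676. DexKLA against KLA gave 3, and 1 (CYP3A7) after thinning, where CYP3A5 had an adjusted p of 0.161. It gave 2 with those 2 groups alone, where CYP3A5 had 0.125. A minimum of 50 counts in 3 libraries, under which CYP3A43 was not tested, gave 2 there and 2, against 3, in the mean effect. Omitting 1 library each gave 0 to 2 in Dex against DMSO and 1 to 2 in DexKLA against DMSO cells. The cause was not tested, although thinning leaves fewer counts by construction. Some uncalled differences changed sign. With library size alone, which moved the median of all genes to -0.11 in Dex against DMSO and -0.13 in KLA against DMSO, these were NR1I3 (-0.0096) and POR (-0.062) in Dex against DMSO and NR1I2 (-0.025) in KLA against DMSO. NR1I3 was at -0.078 in Dex against DMSO without the length trend and, after thinning, at 0.29 in DexKLA against KLA and 0.23 in the mean effect of dexamethasone. With voom, CYP3A4 was at 0.28 in KLA against DMSO. With 1 library omitted at a time, CYP3A4 ran from -0.082 to 1.05 in Dex against DMSO, from -0.65 to 0.48 in KLA against DMSO and from -0.067 to 1.06 in DexKLA against DMSO. POR ran from -0.034 to 0.16 in Dex against DMSO and from -0.031 to 0.16 in DexKLA against KLA. In KLA against DMSO, CYP3A7 ran from -0.23 to 0.016 and NR1I2 from -0.0059 to 0.18. NR1I3 ran from -0.077 to 0.025 in the mean effect of dexamethasone. The background moved too: in Dex against DMSO library size alone called 105 genes higher and 294 lower, against 160 and 110. It called 534 higher and 1719 lower in KLA against DMSO, against 1024 and 782, and 132 and 344 in DexKLA against DMSO, against 374 and 182. In Dex against DMSO the DESeq2 test called 650 genes, no filter gave 909, and the replicate block 134, against 270. With 1 library omitted the genes called ran from 56 to 915 in Dex against DMSO, from 5 to 2363 in KLA against DMSO, from 48 to 1461 in DexKLA against DMSO and from 52 to 94 in DexKLA against KLA. Same-numbered libraries did not deviate together (r from -0.31 to 0.17 over 18 pairs, 1 above 0.1), so the numbers were not taken to pair them. Depth limits CYP3A4 and CYP3A43 most.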
